A study of Mus musculus with 12 samples.

Results

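The complement genes described here are 9 genes of the complement system in lymphatic endothelial cells (LECs) sorted from mouse lung: the C1q chain genes C1qa, C1qb and C1qc, the component genes C3, C4b and Cfb, and the regulator genes Cd55, Cd59a and Serping1. They were chosen by name, as the rows of the count files whose Ensembl identifiers carry these symbols in GENCODE M21. All 9 were found among 52636 gene identifiers, and all 9 passed the filter on low counts that left 21440 genes for testing. Another 44 genes of the complement system, of which 33 passed that filter, are given as the rest of the pathway.

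Complement is a cascade of plasma and cell-surface proteins that marks microbes, immune complexes and dying cells for removal. C1q, built of A, B and C chains, starts the classical pathway by binding its target, after which the proteases C1r and C1s cleave C4 and C2, and the resulting convertase cleaves C3. Factor B, the product of Cfb, forms the convertase of the alternative pathway with C3b, and host cells are spared by regulators that take convertases apart, block the terminal pore or inhibit the first proteases. Liver makes most plasma complement, whereas C1q is made largely by macrophages and dendritic cells, and endothelial cells and fibroblasts can make C3, C4 and several regulators.

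All mice were Prox1-EGFP reporters, in which the regulatory sequence of Prox1 drives GFP, and the cells were sorted as live, GFP and CD31 positive and as negative for EpCAM and a lineage cocktail of blood cell markers. Mice were exposed as whole animals to smoke of 3R4F cigarettes (CS), and age-matched controls breathed room air (RA) on the same rack. The acute groups had 8 weeks of exposure, with 2 CS and 2 RA libraries (F and M, named by sex), and carry an age of 8 weeks in the labels. In the paper, exposure began some weeks after birth, so these mice were older than 8 weeks when their cells were sorted. The chronic groups had 24 weeks or more, with 5 CS libraries (F, M1, M2, M3 and M4) and 3 RA libraries (F, M1 and M2), and are labelled Aged. Each acute library was pooled from several mice of a condition and the chronic libraries were not pooled, so that the length of exposure and pooling cannot be told apart.

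The libraries held 18821438 to 56998590 counts, and chronic CS F, M1 and M2 were the shallowest. Values are CPM, a gene's count relative to the library total after scaling by edgeR's TMM factors, unless FPKM, the same value per exon length of the gene, is named. Prox1, the transcription factor that defines LECs, was high in all libraries and lay at 1813.6 to 2475.5 CPM in the 10 libraries other than acute CS and at 1041.6 and 1261.7 CPM in acute CS. Markers of other cells moved with acute CS: the summed CPM of 8 leukocyte markers was 207.9 to 221.1 in acute RA and 1704.2 to 2189.1 in acute CS, that of 10 macrophage markers 992.1 to 1123.4 and 3809.2 to 6604.8, and that of 10 mesenchyme markers 140.6 to 188.4 and 579.3 to 981.6. In chronic RA and chronic CS these sums were 204.9 to 269.6 and 209.6 to 474.9 for leukocytes, 734.7 to 1043.9 and 921.1 to 2356.8 for macrophages, and 115.4 to 149.4 and 173.8 to 337.2 for mesenchyme. The 9 blood endothelial markers summed to 2858.0 to 3708.9 in acute RA and 6751.2 to 7512.3 in acute CS. The 10 alveolar epithelial markers summed to 6636.5 in acute CS F and to 221.3 in acute CS M, where acute RA gave 786.3 and 1093.7, so that acute CS F lay above both of those and acute CS M below both, and to 256.8 to 490.5 and 960.6 to 4805.9 in chronic RA and CS. The 10 lymphoid markers summed to 19.42 to 21.31 and 186.7 to 213.9 CPM in acute RA and CS, and the 7 mesothelial markers to 6.297 to 28.02 and 82.08 to 126.3 CPM. In these bulk samples, fewer cells of a type and less RNA per cell cannot be told apart, and the part of these cells in the results below was not tested.

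RefSeq promoters, the 250 bases before and 50 after a start site, were given for 5 of the 9 genes: C1qb, C1qc, C3, Cd55 and Cd59a. Those of C1qb and C1qc are shown because both chains had their highest values in the same libraries, that of Cd55 because it was the regulator gene with lower values under CS at both times, and that of Cd59a because its values fell into separate levels. Capitals mark matches to GGNNNTTCC (kappaB-like), GAAANNGAA (ISRE-like) or GAGGAA (ETS or PU.1), searched on both strands together with TTCNNNGAA (GAS) and TGANTCA (AP-1). All are from GRCm38.p6, written 5′ to 3′ on the strand of the gene:
C1qb: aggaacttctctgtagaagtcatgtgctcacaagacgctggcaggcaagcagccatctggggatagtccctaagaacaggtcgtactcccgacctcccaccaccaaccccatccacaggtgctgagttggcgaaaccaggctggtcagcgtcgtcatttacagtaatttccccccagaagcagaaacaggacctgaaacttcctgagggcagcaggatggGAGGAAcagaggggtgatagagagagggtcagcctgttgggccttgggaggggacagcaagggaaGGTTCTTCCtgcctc
C1qc: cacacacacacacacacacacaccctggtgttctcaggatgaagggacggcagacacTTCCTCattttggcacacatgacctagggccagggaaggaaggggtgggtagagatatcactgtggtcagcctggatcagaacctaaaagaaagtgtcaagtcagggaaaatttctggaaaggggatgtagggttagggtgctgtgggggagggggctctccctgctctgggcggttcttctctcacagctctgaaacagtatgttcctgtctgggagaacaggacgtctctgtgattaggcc
Cd55: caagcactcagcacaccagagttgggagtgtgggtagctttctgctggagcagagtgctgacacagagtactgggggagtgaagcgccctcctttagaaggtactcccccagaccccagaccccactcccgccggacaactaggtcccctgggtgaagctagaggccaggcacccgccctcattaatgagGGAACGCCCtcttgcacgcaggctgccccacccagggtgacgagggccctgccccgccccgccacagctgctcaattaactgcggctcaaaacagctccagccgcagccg
Cd59a: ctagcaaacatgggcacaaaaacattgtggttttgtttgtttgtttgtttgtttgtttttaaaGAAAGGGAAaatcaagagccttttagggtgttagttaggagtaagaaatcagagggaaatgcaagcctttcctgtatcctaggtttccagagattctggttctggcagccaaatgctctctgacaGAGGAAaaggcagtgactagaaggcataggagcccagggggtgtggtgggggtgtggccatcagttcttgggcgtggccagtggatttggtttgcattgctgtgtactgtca
The C1qb window is chr4:136886151-136886450 on the minus strand and holds GAGGAA at -30 and a kappaB-like match at 36 bases from the start site. The C1qc window is chr4:136892865-136893164, also on the minus strand, with GAGGAA on its other strand at -193. The Cd55 window, chr1:130462695-130462994 on the minus strand, holds a kappaB-like match on its other strand at -60. The Cd59a window, chr2:104095551-104095850 on the plus strand, holds an ISRE-like match at -187 and GAGGAA at -62. The C3 window held none of the 5 motifs. Such matches are common: of 32851 promoters of the same length, 28.3% held GAGGAA, 18.5% the kappaB-like motif, 8.56% the ISRE-like, 8.3% the GAS and 7.81% the AP-1 motif. The matches describe letters only.

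In room air, C3 and the 3 regulator genes had higher mean levels than C4b, Cfb and the C1q chains. Over the 5 RA libraries of both times, C3, the central component, had the highest level per length of the 9 genes, 41.5 FPKM ± 19.9 (SD, n = 5), at rank 1319 of 21440 genes. Serping1, which encodes the C1 inhibitor that blocks C1r and C1s, followed at 39.4 FPKM ± 20.9, and Cd55, the decay-accelerating factor that takes apart the C3 convertases, at 32.0 FPKM ± 9.14. These 3 neighbours overlapped in range, 17.83 to 69.54, 25.27 to 72.92 and 23.52 to 45.53 FPKM, and their order is not beyond the spread. Cd59a, which blocks assembly of the membrane attack complex, lay at 13.3 FPKM ± 10.4. The remaining 5 genes stood at rank 11016 or below. C4b lay at 1.71 FPKM ± 0.893, C1qb at 1.195 ± 0.357, Cfb at 0.659 ± 0.305, C1qa at 0.600 ± 0.360 and C1qc at 0.540 ± 0.560, and the ranges of these 5 genes overlapped. For comparison, Prox1 lay at 253.0 FPKM ± 29.8.

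Of the 12 regulator genes outside the 9, 5 lay above 10 FPKM in mean and 7 below 1 FPKM. Thbd, the gene of thrombomodulin, which also promotes inactivation of C3b, was highest of the 44 at 133.7 FPKM ± 23. Clu, or clusterin, lay at 56.7 ± 42.0, Susd4 at 28.2 ± 4.89 and Cr1l (Crry), the rodent membrane regulator of C3 convertases, at 17.8 ± 0.700 FPKM, while Vtn, Cd46, Cd59b, Csmd1, Cd55b, Cfi and C4bp lay between 0 and 0.883 FPKM. Of the 9 genes of the lectin pathway 1 lay above 10 FPKM, as did 1 of the 6 of the classical pathway: the scavenger lectin gene Colec12 lay at 30.5 ± 3.77 and the protease gene C1ra at 18.8 ± 2.19 FPKM. C1ra shared 48.0% of its 50-base windows with C1rb, so its level depends on how such reads were counted. The pattern recognition and pore genes Mbl1, Mbl2, Fcnb, Colec10, C8a, C8b and C9, the regulator C4bp and the factor D gene Cfd had 0 counts in all 5 RA libraries. Most of these are known as products of liver, myeloid cells or fat.

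**Figure D1:**
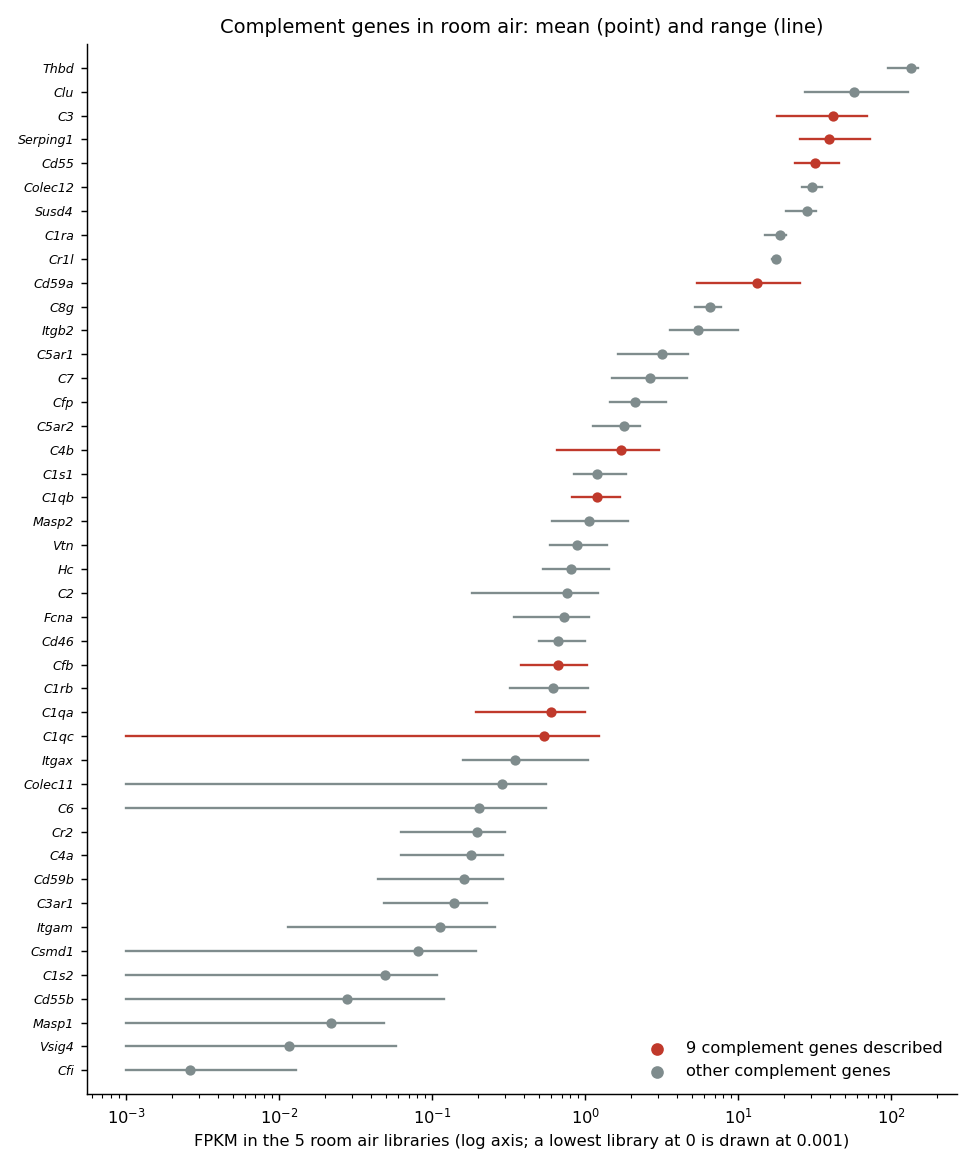
FPKM of complement genes in the 5 room air libraries on a log axis, as mean (point) and range (line), with the 9 genes described in red and other genes of the system in grey; genes at 0 in all 5 libraries are left out. C3, Serping1, Cd55 and Cd59a lie above 10 FPKM, and C4b, Cfb and the C1q chains at 1.71 FPKM or less.

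The C1q chain genes stand side by side on chromosome 4 of GRCm38, all on the minus strand: C1qb at 136880129 to 136886187 (ENSMUSG00000036905), C1qc at 136889804 to 136893065 (ENSMUSG00000036896) and C1qa at 136895917 to 136898803 (ENSMUSG00000036887). None shares exon bases or 50-base windows with another gene. Their values were higher in both acute CS libraries than in any other library, though none of the 3 differences passed the adjusted test. C1qa was counted at 0.709 and 0.908 CPM in acute RA F and M (42 and 48 counts) and at 10.4 and 10.5 CPM in acute CS F and M (529 and 485 counts). C1qb was counted at 1.12 and 1.55 CPM in acute RA and at 16.9 and 17.5 CPM in acute CS. C1qc was counted at 0 and 2.38 CPM in acute RA and at 9.58 and 17.9 CPM in acute CS. In each of the 3 genes the acute groups did not overlap. The log2 difference was 3.69 for C1qa (SE 1.36, edgeR unadjusted p = 0.0203 and adjusted p = 0.205), a 12.9-fold higher value, where every edgeR p comes from its quasi-likelihood test and every adjusted p follows Benjamini and Hochberg over all genes tested. It was 3.69 for C1qb (SE 1.81, edgeR adjusted p = 0.366) and 3.53 for C1qc (SE 2.63, edgeR adjusted p = 0.614). By DESeq2 the adjusted p of C1qa was 0.0296, and in a fit of the acute groups alone edgeR's adjusted p of C1qb was 0.0456. Over all alternatives the adjusted p ranged from 0.0296 to 0.579 for C1qa and from 0.0456 to 0.684 for C1qb.

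In the chronic groups the C1q chains were low in most libraries and raised in a pair of the CS libraries. In chronic RA F, M1 and M2 they gave 33, 7 and 9 counts for C1qa, 59, 38 and 30 for C1qb, and 60, 0 and 32 for C1qc. In chronic CS F, M1, M2, M3 and M4 the counts were 12, 9, 43, 152 and 4 for C1qa, 8, 0, 184, 307 and 14 for C1qb, and 15, 0, 97, 181 and 0 for C1qc. Chronic CS M2 and M3 thus held most of the C1q reads of the group, at 1.79 and 3.26 CPM of C1qa and 7.65 and 6.58 CPM of C1qb, while F, M1 and M4 lay at or below chronic RA F in all 3 genes. The log2 differences were 1.31 for C1qa (SE 0.97), 1.23 for C1qb (SE 1.26) and 0.89 for C1qc (SE 1.83), with edgeR adjusted p = 0.646, 0.755 and 0.888, and exact two-sided permutation p of 0.536, 0.893 and 0.893. At these counts a 0 in chronic CS M1 allows up to 3 counts, or 0.139 CPM by library size, of counting error alone.

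Per length, C1qb was the largest part of the C1q sum where counts were high, and the order of C1qa and C1qc varied. In acute CS F the summed FPKM of the 3 was 30.5, of which C1qa made 32.8%, C1qb 51.0% and C1qc 16.3%. In acute CS M the sum was 35.4 FPKM, with 28.5% C1qa, 45.3% C1qb and 26.1% C1qc. In chronic CS M2 and M3, with sums of 10.8 and 11.2 FPKM, C1qb made 64.9% and 54.1%, C1qa 15.9% and 28.0%, and C1qc 19.3% and 18.0%. In chronic CS M2 the share of C1qc thus lay above that of C1qa, the reverse of the other 3. In CPM, which is not per length, C1qc (39.0%) and C1qb (38.1%) were nearly level in acute CS M. In the other 8 libraries the sum lay between 0.378 and 3.67 FPKM, and C1qc had 0 counts in 4 of them, in 1 of which, chronic CS M1, C1qb did too.

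Leukocyte markers stood high in the same acute libraries. Ptprc, the gene of CD45, was counted at 19.8 and 19.6 CPM in acute RA and 284.5 and 154.0 CPM in acute CS, and the macrophage gene Adgre1 at 1.25 and 1.04 and at 46.2 and 23.3 CPM. Csf1r, also a macrophage gene, was at 20.3 and 10.5 CPM in acute RA and 258.8 and 31.4 CPM in acute CS (F and M). In chronic CS F, M1, M2, M3 and M4, Csf1r was at 1.155, 23.5, 5.48, 30.0 and 16.7 CPM, and in chronic RA at 1.91 to 12.7 CPM. The C1q chains had 9, 0 and 0 counts in chronic CS M1. In chronic CS M3, Ptprc was at 54.3 and Adgre1 at 7.93 CPM, the highest of that group. In chronic CS M2, Ptprc was at 35.7 CPM but Adgre1 at 0.374 CPM, below the 1.07 to 3.07 CPM of chronic RA. The 10 macrophage markers summed to 921.1, 1169.1, 1895.2, 2356.8 and 1029.0 CPM in chronic CS F, M1, M2, M3 and M4. In chronic RA that sum was 734.7 to 1043.9 CPM. The genes whose log2 CPM followed C1qa most closely over the 12 libraries were F10 (Pearson r = 0.961), Cd68 (r = 0.948) and Rassf4 (r = 0.925), among 14694 genes with a mean of at least 1 CPM. For C1qb they were Wif1 (r = 0.958), Nckap1l (r = 0.942) and Wdfy4 (r = 0.928), and for C1qc 5430437J10Rik (r = 0.908), F7 and Gm38708 (both r = 0.864). Of these genes, Cd68 is a macrophage gene and Nckap1l a gene of blood cells. The others are given without a cell type, among them the closest to each chain, F10, Wif1 and 5430437J10Rik. These correlations are descriptions over libraries that share depth and groups, and the part of leukocyte RNA in the C1q values was not tested.

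**Figure D2:**
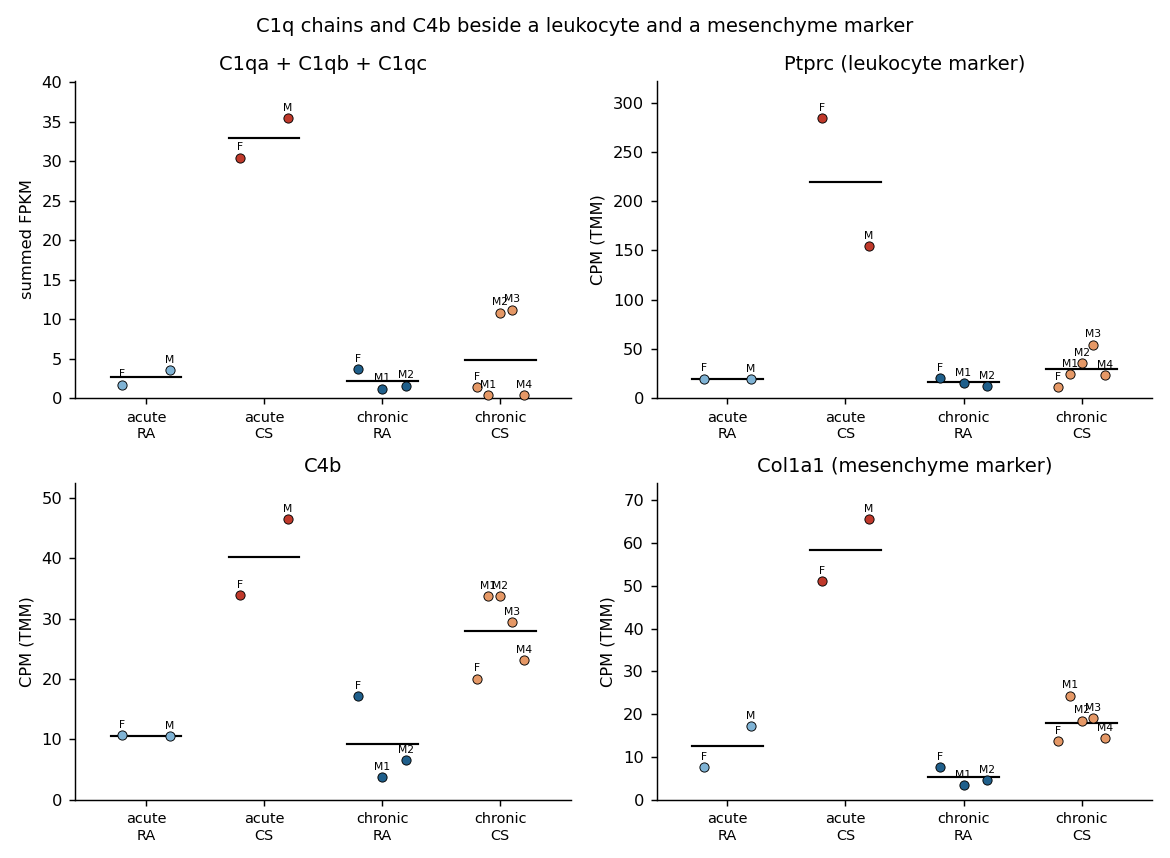
Summed FPKM of the C1q chains, and CPM of C4b, Ptprc and Col1a1, in each library (points, labelled F or M with the number), with the group mean as a bar. The C1q sum was 30.5 and 35.4 FPKM in acute CS, and C4b was 20.05 to 33.7 CPM in chronic CS and 3.71 to 17.2 CPM in chronic RA.

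C4b, which encodes the component that C1s cleaves to build the classical convertase, was the component gene with higher values under CS at both times. It lies at chr17 34728380 to 34743882 of GRCm38 on the minus strand (ENSMUSG00000073418), in the same stretch of the chromosome as Cfb. It was counted at 10.6 CPM in both acute RA libraries and at 33.9 and 46.5 CPM in acute CS F and M. In chronic RA F, M1 and M2 it was counted at 17.2, 3.71 and 6.55 CPM, and in chronic CS F, M1, M2, M3 and M4 at 20.05, 33.7, 33.7, 29.5 and 23.1 CPM. The groups did not overlap at either time, with the narrowest gap between chronic RA F and chronic CS F. The log2 difference was 1.92 in acute (SE 0.56, unadjusted p = 0.00543, edgeR adjusted p = 0.0991) and 1.61 in chronic CS (SE 0.42, unadjusted p = 0.00283, edgeR adjusted p = 0.279), or 3.79-fold and 3.06-fold higher. The exact permutation p of the chronic difference was 0.0357, which is the smallest that 5 against 3 libraries can give. By DESeq2 the adjusted p was 0.00774 in acute and 0.00625 in chronic CS, while over all alternatives it ranged up to 0.424 and 0.692, so the call turned on the tool. The acute and chronic differences differed by 0.31 on the log2 scale (SE 0.67, interval of 2 SE from -1.03 to 1.65, edgeR adjusted p = 0.929).

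C4b shares 34.6% of its 50-base windows with its neighbour C4a, and reads from that part could be placed on neither. Mesenchyme markers moved with C4b. Col1a1, the collagen gene of fibroblasts, was counted at 7.65 and 17.2 CPM in acute RA and 51.1 and 65.5 CPM in acute CS. In chronic RA it was counted at 7.58, 3.43 and 4.62 CPM and in chronic CS at 13.7, 24.3, 18.5, 19.1 and 14.3 CPM, again without overlap. Of 10 mesenchyme markers, 10 had a higher mean in acute CS and 9 in chronic CS, with a median log2 difference of 2.34 and 1.47. The gene closest to C4b over the 12 libraries was Col6a2 (r = 0.958), a collagen VI gene, before Smim1 (r = 0.918) and Sdc2 (r = 0.912). The part of mesenchymal RNA in the C4b values was not tested.

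C3 was higher in the chronic than in the acute RA libraries, without passing the adjusted test. The gene (ENSMUSG00000024164) lies at chr17 57203970 to 57228136 on the minus strand. It was counted at 91.7 and 145.4 CPM in acute RA F and M and at 110.5 and 153.2 CPM in acute CS F and M, which overlapped. In chronic RA F, M1 and M2 it was counted at 217.3, 357.7 and 254.5 CPM, above every acute library. In chronic CS F, M1, M2, M3 and M4 it was counted at 144.4, 208.5, 151.9, 303.3 and 206.2 CPM, with 4 of 5 below all chronic RA libraries and M3 among them. The log2 difference of chronic RA from acute RA was 1.22 (SE 0.34, unadjusted p = 0.00447, edgeR adjusted p = 0.479), or 2.33-fold higher, and its DESeq2 adjusted p was 0.0299, in a range of 0.0299 to 1 over all alternatives. Age, exposure time and pooling cannot be told apart in it. The difference between CS and RA was 0.15 in acute (SE 0.36, interval of 2 SE from -0.57 to 0.88, edgeR adjusted p = 0.927) and -0.45 in chronic mice (SE 0.26, interval from -0.97 to 0.08, edgeR adjusted p = 0.549). The nearest patterns were those of Zhx2 (r = 0.912), C2, the component that joins C4b in the classical convertase (r = 0.896), and Nptxr (r = 0.895).

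Cfb was low in every library. It lies at chr17 34856374 to 34862518 on the minus strand (ENSMUSG00000090231). Of its exon bases, 79.5% also belong to Gm20547, a gene model on the same strand that had 0 counts in all libraries, so reads from most of Cfb could be left out as belonging to both and its level is uncertain. It was counted at 1.13 and 1.078 CPM in acute RA, 1.45 and 1.43 CPM in acute CS, 1.54, 2.68 and 2.89 CPM in chronic RA F, M1 and M2, and 1.10, 0.968, 0.457, 1.54 and 1.15 CPM in chronic CS F, M1, M2, M3 and M4. Chronic CS M3 and chronic RA F were nearly level, and the other chronic CS libraries lay below chronic RA. The log2 difference was 0.38 in acute (SE 0.63, edgeR adjusted p = 0.882) and -1.17 in chronic CS (SE 0.45, unadjusted p = 0.0248, edgeR adjusted p = 0.401, exact permutation p = 0.0714). The acute minus the chronic difference was 1.56 (SE 0.78, interval of 2 SE from -0.01 to 3.13, edgeR adjusted p = 0.475). The nearest patterns were Pithd1 (r = 0.904), Sgta (r = 0.900) and Zbtb22 (r = 0.886).

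Among the regulators, Cd55 had lower values under CS at both times. The gene (ENSMUSG00000026399) lies at chr1 130439027 to 130462744 on the minus strand and shares 8.0% of its 50-base windows with its copy Cd55b. It was counted at 121.0 and 114.1 CPM in acute RA F and M and at 55.5 and 74.1 CPM in acute CS F and M. In chronic RA F, M1 and M2 it was counted at 141.8, 177.7 and 221.0 CPM, and in chronic CS F, M1, M2, M3 and M4 at 132.7, 79.4, 119.5, 114.8 and 120.0 CPM. The groups did not overlap at either time, with chronic CS F and chronic RA F closest. The log2 difference was -0.86 in acute (SE 0.25, unadjusted p = 0.00577, edgeR adjusted p = 0.102) and -0.67 in chronic CS (SE 0.18, unadjusted p = 0.00336, edgeR adjusted p = 0.288), or 1.82-fold and 1.59-fold lower. The exact permutation p of the chronic difference was 0.0357. By DESeq2 the adjusted p was 0.0165 and 0.0415, and over all alternatives it ranged up to 0.530 and 0.731. Cd55 was also higher in chronic than in acute RA, by 0.62 (SE 0.23, edgeR adjusted p = 0.657), and the acute and chronic differences differed by -0.19 (interval of 2 SE from -0.81 to 0.43, edgeR adjusted p = 0.894).

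Lymphatic markers were lower in acute CS together with Cd55. The 8 lymphatic markers summed to 14278.9 and 16068.1 CPM in acute RA and 6188.0 and 9575.6 CPM in acute CS. Their median log2 difference was -1.02, beside -0.86 for Cd55. In the chronic groups the sums overlapped, 19490.0 to 22021.7 CPM in RA and 14405.0 to 20707.6 CPM in CS. There the median was -0.20, beside -0.67 for Cd55, which did not overlap. The nearest patterns to Cd55 were N4bp3 (r = 0.939), Trim62 (r = 0.908) and Tspan14 (r = 0.906). The part of the share of LEC RNA in the Cd55 values was not tested.

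Serping1 had higher values in acute CS than in acute RA, and no such difference in the chronic groups. The gene (ENSMUSG00000023224) lies at chr2 84765387 to 84775444 on the minus strand. It was counted at 61.2 and 59.6 CPM in acute RA F and M and at 93.4 and 189.7 CPM in acute CS F and M. The acute CS libraries thus differed from each other by more than acute CS F differed from acute RA. In chronic RA F, M1 and M2 it was counted at 58.8, 169.5 and 109.2 CPM and in chronic CS F, M1, M2, M3 and M4 at 78.3, 150.8, 129.4, 111.4 and 81.0 CPM, all within the RA range. The log2 difference was 1.23 in acute (SE 0.47, unadjusted p = 0.0242, edgeR adjusted p = 0.222) and -0.03 in chronic CS (SE 0.34, interval of 2 SE from -0.71 to 0.65, edgeR adjusted p = 0.986). The difference between the 2 was 1.26 (SE 0.58, interval from 0.11 to 2.41, unadjusted p = 0.0512, edgeR adjusted p = 0.423). The nearest patterns were Ifitm2 (r = 0.843), Entpd2 (r = 0.839) and Fntb (r = 0.830).

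Cd59a took separate levels that followed neither smoke nor time nor sex. The gene (ENSMUSG00000032679) lies at chr2 104095801 to 104115354 on the plus strand and shares 3.9% of its 50-base windows with Cd59b. It was counted at 45.7 CPM in acute RA F, 53.2 in acute CS M, 44.1 in chronic RA M1, 39.2 in chronic CS M3 and 77.8 in chronic CS M4. In the other 7 libraries it was counted at 7.97 to 12.6 CPM, and no library lay between 12.6 and 39.2 CPM. Each of the 4 groups held libraries of both levels, and each level held both sexes. In chronic CS the libraries of the upper level, M3 and M4, held 47494020 and 45436986 counts, and those of the lower level 18821438 to 22885446. The deepest library was at the upper level in acute RA (F) and chronic RA (M1) too, but at the lower level in acute CS (F). The part of depth was not tested. The log2 difference was 0.22 in acute (SE 1.19) and 0.46 in chronic CS (SE 0.89), with edgeR adjusted p = 0.975 and 0.883 and intervals of 2 SE from -2.16 to 2.60 and from -1.32 to 2.23. The nearest patterns were Sh3bgrl (r = 0.866), Sypl (r = 0.864) and Gatm (r = 0.857), whose own values ranged over 154.3 to 292.9, 267.5 to 361.0 and 15.6 to 62.1 CPM.

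**Figure D3:**
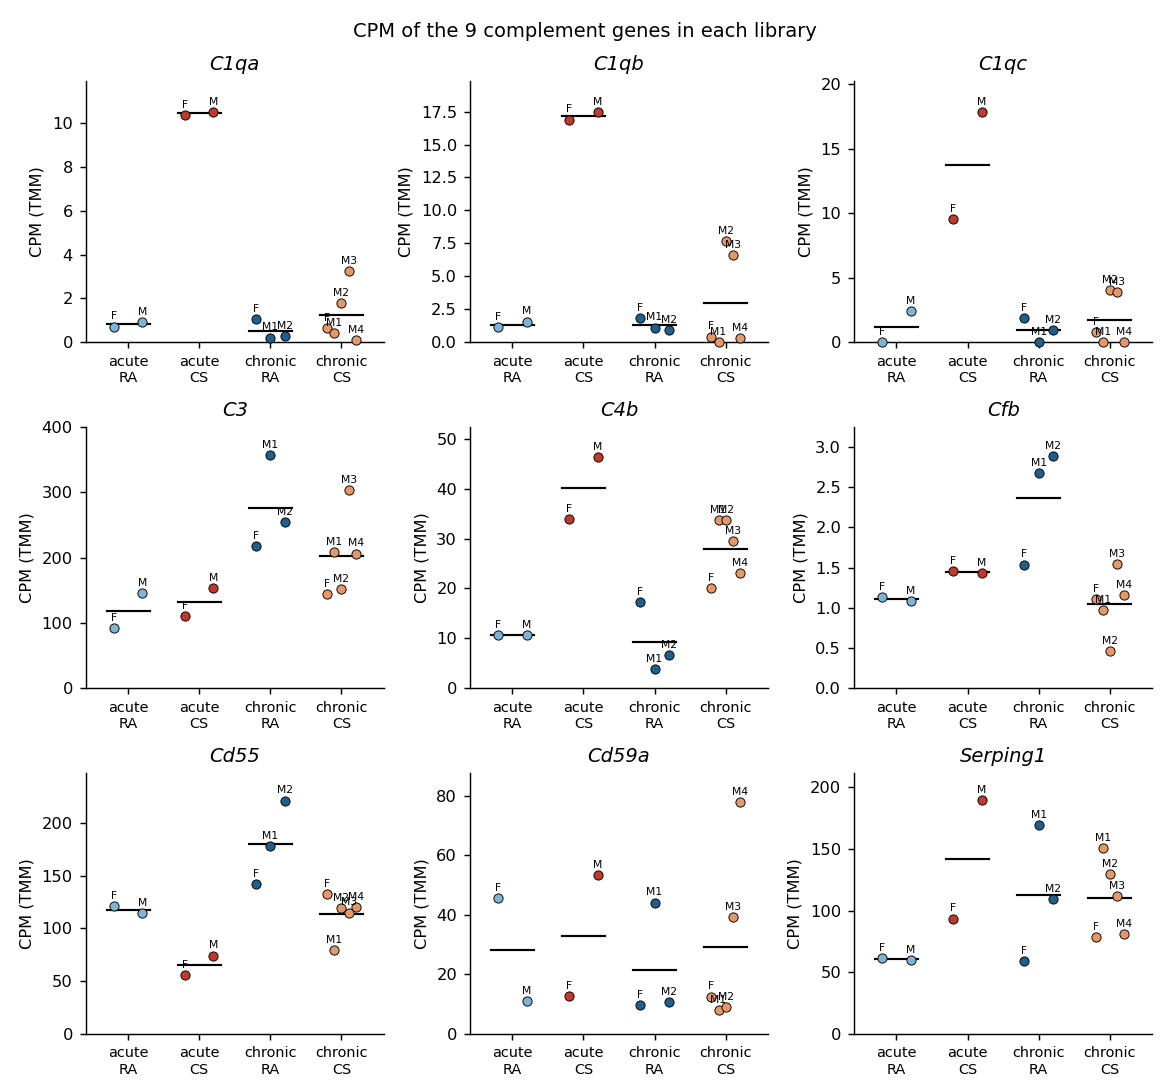
CPM of the 9 complement genes in each of the 12 libraries (points, labelled F or M with the number), with the group mean as a bar; every axis starts at 0. The C1q chains are highest in acute CS, C4b and Cd55 do not overlap between CS and RA at either time, and Cd59a has 5 libraries at 39.2 CPM or more and 7 at 12.6 CPM or less.

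Counted together, none of the 9 genes was called in any of the 4 comparisons by edgeR at an adjusted p under 0.05. In acute CS against acute RA this was 0 of 9 where 3.48% of all genes were called, with 3 genes higher and 1 lower at an unadjusted p under 0.05 (15.7% of all genes), and 3 called by DESeq2, C1qa, C4b and Cd55 (9.15% of all genes). The acute groups did not overlap for 7 of the 9 genes, 6 higher and 1 lower, where they did not for 50.6% of all genes. The median log2 difference of the 9 was 1.23 and that of all genes 0.04. With 2 against 2 libraries the exact permutation test cannot go below 0.333, which these 7 genes reached.

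Without acute CS F, the library with high epithelial markers, 0 of 9 were called and the acute log2 differences were 3.70 for C1qa, 3.71 for C1qb, 3.91 for C1qc, 2.13 for C4b, 1.65 for Serping1 and -0.66 for Cd55, all in the direction given above. Without acute CS M, Serping1 was at 0.63 in place of 1.23. C1qc was at 2.53 without acute RA F and at 11.99 without acute RA M, where the control left, acute RA F, had 0 counts and the value is no bound. In chronic CS, leaving out chronic RA F gave 2.39 for C1qa, 1.87 for C1qc and 2.45 for C4b, leaving out chronic CS M3 gave 0.53 for C1qa, and leaving out chronic CS M2 gave 0.54 for C1qb.

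In chronic CS against chronic RA, 0 of 9 genes were called, as were 0% of all genes. At an unadjusted p under 0.05, 1 was higher (C4b) and 2 were lower (Cfb and Cd55), beside 10.9% of all genes, and DESeq2 called C4b and Cd55, beside 2.44%. The groups did not overlap for those same 2 genes, and did not for 9.41% of all genes. The median log2 difference was 0.46 for the 9 and 0.01 for all genes.

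**Figure D4:**
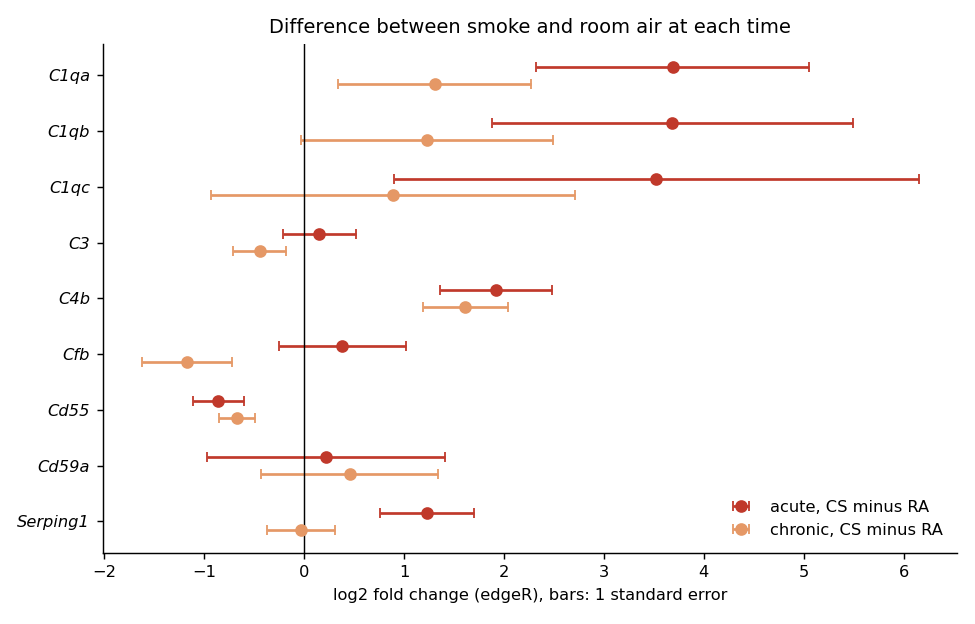
Log2 fold change of CS from RA in edgeR for the 9 genes, in acute (red) and chronic (orange) mice, with bars of 1 standard error. The C1q chains lie at 3.53 to 3.69 in acute and 0.89 to 1.31 in chronic mice with wide errors, and C4b and Cd55 lie on the same side of 0 at both times.

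In chronic RA against acute RA, 0 of 9 genes and 0% of all genes were called by edgeR. C3 and Cd55 were higher at an unadjusted p under 0.05, beside 7.01% of all genes, and DESeq2 called C3, beside 1.18%. C3, Cfb and Cd55 did not overlap, all higher in chronic RA, beside 34.7% of all genes. The median was -0.06 for the 9 and 0.00 for all genes. With library size in place of TMM the median of all genes shifted to -0.10 here and to 0.10 in chronic CS against chronic RA. It shifted to -0.08 in the difference between the acute and chronic effects. For that difference, 0 of 9 genes were called by edgeR (0.452% of all genes), 0 passed an unadjusted p under 0.05 (11.9% of all genes), and DESeq2 called 0 (4.29% of all genes).

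In the rest of the pathway, 3 of 7 receptor genes, 1 of 6 classical pathway genes and 1 of 9 regulator genes tested passed the test in acute CS. Of the 33 genes tested, 5 were called higher and none lower in acute CS, where 3.48% of all genes were called in either direction. At an unadjusted p under 0.05, 8 were higher and none lower (15.7% of all genes), and the median log2 difference was 1.04 (0.04 over all genes). Itgb2, the beta chain of complement receptors 3 and 4, was counted at 16.9 and 12.6 CPM in acute RA and 309.5 and 154.1 CPM in acute CS, a log2 difference of 3.98 (edgeR adjusted p = 0.00886). Itgax, the alpha chain of complement receptor 4, rose from 0.760 and 0.832 CPM to 82.9 and 55.0 CPM, by 6.43 (edgeR adjusted p = 0.0154). C5ar1, the receptor of the anaphylatoxin C5a, rose from 11.99 and 10.97 CPM to 99.7 and 44.2 CPM, by 2.65 (edgeR adjusted p = 0.0473). The first 2 receptors are leukocyte integrins, and their rise stood beside that of Ptprc given above.

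The other called genes were a protease and a regulator. C1s1, the C1s protease that cleaves C4, rose from 2.85 and 3.01 CPM in acute RA to 13.0 and 16.5 CPM in acute CS, by 2.33 (SE 0.47, edgeR adjusted p = 0.0222), and shares 21.8% of its 50-base windows with C1s2. Thbd rose from 549.2 and 547.3 CPM to 1807.1 and 1173.0 CPM, by 1.44 (SE 0.25, edgeR adjusted p = 0.0117). Thrombomodulin is made by endothelium in general, and its lowest level in any library here was 354.0 CPM. Vwf, a blood endothelial marker, was counted at 53.1 and 39.0 CPM in acute RA and 1074.2 and 1828.3 CPM in acute CS. All 9 blood endothelial markers had a higher mean in acute CS. The part of blood endothelial RNA in the Thbd values was not tested. Cfp, the gene of properdin, which stabilises the alternative convertase, was counted at 2.52 and 3.01 CPM in acute RA and 32.0 and 9.67 CPM in acute CS, at an edgeR adjusted p of 0.0503, and was called by DESeq2. Its log2 difference was 2.91, and was 1.81 (edgeR adjusted p = 0.431) without acute CS F and 3.53 (edgeR adjusted p = 0.0227) without acute CS M. C1ra (log2 difference 0.13, edgeR adjusted p = 0.931), Colec12 (-0.53, edgeR adjusted p = 0.516) and C8g (-0.44, edgeR adjusted p = 0.768) were not called, and Colec12 was at -1.15 without acute CS M and at -0.087 without acute CS F. DESeq2 called 7 of the 33 in acute CS, the 5 named and Cfp and Itgam, beside 9.15% of all genes. All 5 calls were lost when acute CS F or either acute RA library was left out, which leaves a lone library in that group, and that of C1s1 also without acute CS M. The C5ar1 call was further lost with library size in place of TMM, sex as a covariate or robust estimation, and only Itgax kept its call when the acute groups were fitted alone. Without either acute RA library the log2 differences stayed near those above, at 4.21 and 3.75 for Itgb2 and 1.45 and 1.41 for Thbd, and without acute CS F they were 3.39 for Itgb2 and 1.95 for C5ar1.

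In chronic CS none of the 33 genes was called, as were 0% of all genes. At an unadjusted p under 0.05, 6 were higher and 1 lower (10.9% of all genes), and the median log2 difference was 0.03 (0.01 over all genes). Itgax was counted at 5.01, 0.921 and 0.775 CPM in chronic RA F, M1 and M2 and at 2.31, 10.8, 21.7, 12.4 and 5.49 CPM in chronic CS F, M1, M2, M3 and M4, a log2 difference of 2.24 (edgeR adjusted p = 0.367), and was the 1 gene of the 33 that DESeq2 called, beside 2.44% of all genes. The log2 difference of Itgax was 3.63 without chronic RA F and 1.80 without chronic CS M2. Thbd was counted at 354.0 to 555.6 CPM in chronic RA and 566.9 to 798.3 CPM in chronic CS without overlap, a log2 difference of 0.53 (edgeR adjusted p = 0.367, exact permutation p = 0.0357). C1ra was counted at 57.1 to 61.0 CPM in chronic RA and 32.3 to 54.9 CPM in chronic CS, also without overlap, at -0.37 (edgeR adjusted p = 0.572). Thbd and C1ra were the only genes of the 33 without overlap, beside 9.41% of all genes. Vwf did not overlap either, at 51.02 to 61.35 CPM in chronic RA and 88.55 to 275.6 CPM in chronic CS. The sums of the 9 blood endothelial markers overlapped, 3371.6 to 3488.8 CPM in chronic RA and 2765.3 to 3784.6 CPM in chronic CS. The difference between the acute and chronic effects was called for none of the 33 by edgeR, beside 0.452% of all genes, and for Itgb2, Itgax and Cfp by DESeq2, beside 4.29%. The C2 gene was the 1 pathway gene that DESeq2 called between chronic and acute RA, where it called 1.18% of all genes.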

How the data were processed

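RNA of sorted lung LECs was sequenced in 12 libraries (SMART-Seq v4 and Nextera XT). The authors deposited unnormalised read counts per Ensembl gene, made with FastQC 0.11.9, Skewer, Minion and STAR in GeneCounts mode on GRCm38; which annotation and which strand column were used is not given in the sources used here. That mode leaves out reads that map to several places or belong to several genes, which lowers genes with copies or overlaps.

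Groups, sex and numbers came from the labels. Symbols, positions and exon lengths came from GENCODE M21, which lacked 147 of 52636 identifiers. Counts were filtered by filterByExpr and tested with edgeR 4.0.16 in R 4.3.3 (TMM scaling, a single quasi-likelihood fit by group over all 12 libraries), with Benjamini-Hochberg adjustment over 21440 genes and a limit of 0.05; DESeq2 1.42.0 was an alternative. The steps were tested on simulated data. Exact permutation tests of single genes were two-sided, on log2 CPM with a prior count of 2. FPKM used the union of exons, and shared reads were estimated from exon overlap and 50-base windows of transcripts. P-values measure the spread between libraries, and intervals of counts cover counting error only. Each edgeR SE was the size of the log2 difference divided by the square root of its quasi-likelihood F statistic. Intervals of 2 SE are narrower than that test implies, and can leave out 0 where its unadjusted p is above 0.05.

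The 9 genes and all lists were chosen with earlier results of these data known. Named by plan are the 9 genes, pathway genes called in any comparison, and the pathway gene with the highest FPKM in room air in each role. So are the 3 nearest patterns per gene and the defining markers Prox1, Ptprc, Adgre1, Csf1r, Col1a1 and Vwf. Flt4, Epcam, Sftpc and Msln were also planned as defining markers, and enter only through the sums of their lists. C2, Itgam, Clu, Susd4, Cr1l, Vtn, Cd46, Cd59b, Csmd1, Cd55b, Cfi and the genes at 0 were named after their values were seen. C4a, C1rb, C1s2 and Gm20547 are named for shared sequence. A pathway gene is not reported here by name. Other assays of the study were not analysed here.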

Additional observations from a re-analysis of the deposited data

Results flagged for a closer look

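Cfb lay on opposite sides of room air under CS at the 2 times: both acute CS libraries lay above the mean of acute RA and all 5 chronic CS libraries lay below the mean of chronic RA. The acute minus the chronic log2 difference was 1.56, which did not pass edgeR's test of the difference (adjusted p = 0.475), at 11 to 97 counts per library.

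Cd55 was lowest in chronic CS M1, at 79.4 CPM against 114.8 to 132.7 CPM in the other 4 libraries. On the log2 scale that gap was 0.717 of the range of the group, the only such gap among 18 genes examined in the 5 chronic CS libraries, where chance alone gives about 1 in 20. In the fits that left out 1 library or changed another choice, the chronic log2 difference of Cd55 ranged from -0.81 to -0.49.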

How the results depend on the processing

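The number of the 9 genes called stayed at 0 under library size, no filter, sex as a covariate, robust estimation, every fit without 1 library and the replicate block. It was 1 (C1qb) in the acute groups fitted alone, and DESeq2 gave 3 in acute CS, 2 in chronic CS, 1 between the RA groups and 0 for the difference of effects. The number of pathway genes called in acute CS, 5, was 0 with the replicate block, 1 (Itgax) with the acute groups alone, 7 by DESeq2 and 0 to 5 in fits without 1 library, where the 5 without acute CS M held Cfp in place of C1s1. DESeq2 called 1 pathway gene in chronic CS, 1 between the RA groups and 3 for the difference of effects, for which no filter gave 1 (Itgb2). Libraries of the same sex and number did not deviate together (r from -0.0419 to 0.0693), so the numbers were not taken to pair them. Over all genes the replicate block left 73 calls in acute CS, against 746 without it and 1961 by DESeq2. By CPM instead of FPKM the mean C1q shares in acute CS were 25.6% C1qa, 42.0% C1qb and 32.5% C1qc, in place of 30.7%, 48.2% and 21.2%.

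Signs turned only for differences that were not called. With the replicate block, chronic CS gave -1.35 for C1qb, -0.74 for Cd59a, 0.16 for Serping1, -0.19 for Colec12 and -0.043 for Cfp, chronic RA gave 2.20 for Cd59a, and the difference of effects was -0.041 for C4b and 0.96 for Cd59a. With chronic CS F, M1 and M2 only, chronic CS gave -1.11 for Cd59a, 0.11 for Serping1, -0.16 for Colec12 and -0.076 for Cfp, and the difference of effects 1.28 for Cd59a. Serping1 in chronic CS was 0.069 with library size and 0.007 by DESeq2. With sex as a covariate, Cd59a was -0.37 in acute CS and C1qc 0.18 between the RA groups. Fits without 1 library ranged in acute CS from -0.14 to 0.49 for C3, from -1.16 to 1.60 for Cd59a and from -0.41 to 0.52 for C1ra. In chronic CS they ranged from -0.33 to 0.40 for Serping1, from -0.31 to 0.32 for Cfp, from -0.053 to 0.16 for Colec12 and from -0.31 to 1.55 for Cd59a. Between the RA groups they ranged from -1.50 to 0.98 for Cd59a, from -0.43 to 0.18 for C1qb, from -1.335 to 8.15 for C1qc (the latter with acute RA F alone, at 0 counts, so that it is no bound) and from -1.05 to 0.15 for C4b. For the difference of effects they ranged from -0.41 to 0.006 for Cd55, from -1.62 to 1.15 for Cd59a and from -0.56 to 0.65 for C4b. The causes were not tested. In acute fits without 1 library the lone library is assumed to vary like the other groups. Cfb had 11 to 97 counts in a library, and the C1q chains 307 or fewer outside acute CS, which limits their precision.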

Other observations

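The values of the 9 genes over the 12 libraries were compared with each other as a description, since the libraries share groups and depth. The C1q chains followed each other at Pearson r of 0.811 to 0.840 of log2 CPM, the highest among the 36 pairs. C4b and Cd55 ran opposite to each other (r = -0.771), the lowest of the pairs, and C1qa and Cd55 did so less closely (r = -0.690). Cd59a had no r beyond 0.248 with Cfb or -0.268 with C1qc.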
